A study of Homo sapiens with 12 samples.

Results

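The receptors of vascular endothelial growth factor (VEGF), their neuropilin co-receptors and a set of further angiogenic ligands were followed in H358 cells. The set holds 9 genes, namely the receptors KDR, FLT1 and FLT4, the co-receptors NRP1 and NRP2, and the ligands PGF, ANGPT1, ANGPT2 and ANGPTL4. They were found on the array through the RefSeq accession that the files give for each probe, and 20 of the 41000 gene probes belong to them. H358 is a human lung adenocarcinoma cell line, and the cells came from the H358/Tet-On/SRSF2 clone, in which a Tet-responsive promoter drives the pre-mRNA splicing factor SRSF2. Gene expression with and without SRSF2 over-expression was compared on 44 k Agilent arrays: 6 were labelled control, with none as their treatment, and 6 were labelled SRSF2 over-expression, with 1 µg/mL doxycycline for 24 hours. Both conditions come from 1 clone, and the sources used here do not say if the control cells of these arrays were given doxycycline. Every one of the 3 slides carried 2 arrays of each condition, and each condition had 3 labelings with 2 arrays each, so p-values measure the spread between arrays.

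VEGF family ligands signal through 3 receptor tyrosine kinases, FLT1 (VEGFR1), KDR (VEGFR2) and FLT4 (VEGFR3), which are known mainly from blood and lymphatic endothelial cells. Neuropilins have short cytoplasmic tails and no kinase domain; they bind VEGF and class 3 semaphorins at the cell surface, work together with KDR or with plexins, and are often found on carcinoma cells. Placental growth factor (PGF) binds FLT1 and neuropilin, the angiopoietins ANGPT1 and ANGPT2 bind the receptor TEK, and ANGPTL4 is a secreted inhibitor of lipoprotein lipase whose transcription responds to PPAR factors and to low oxygen.

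The label of the over-expression arrays was first set against SRSF2 itself. Its probe A_23_P77776 had log2 levels from 3.74 to 4.03 (median 3.96) in the control arrays and from 2.29 to 2.56 (median 2.51) in the arrays labelled SRSF2 over-expression. Such a level is the log2 of the background-subtracted signal minus the 75th percentile of the gene probes of that array. The SRSF2 signal was thus lower by 1.46 on the log2 scale in the arrays labelled SRSF2 over-expression, which goes against the label. The sequence of this probe was not used here, so it is not known whether it reads the transgene, and the study's own measurements of SRSF2 by other methods were not analysed here. All directions given for the 9 genes are between the arrays as labelled. Whether a spot is well above background is a flag set by Agilent's software. From 54.2% to 67.8% of gene spots were well above background in the control arrays and from 55.2% to 68.0% in the others. Of 15 probes of lung epithelial markers, 13 were well above background on all 12 arrays. The 12 of the 15 that had a value on every array were summed. Their sum ran from 603 to 674 times the 75th percentile signal in the control arrays and from 487 to 549.7 times in the others. The brightest of them, KRT19 A_23_P66798, weighs most in it, with mean log2 levels of 8.68 in control and 8.17 in the others. Of the 14 probes of this list that could be tested, 5 were called higher by limma and 3 lower. The markers thus did not fall together, and the part of the shift of the sum in the results given next was not tested. Of the 19 probes of endothelial markers, 9 were well above background on no array, among them every probe of CDH5, EMCN, LYVE1, PROX1 and MMRN1. Another 3 were so on all 12, namely PECAM1 A_23_P252471, ERG A_24_P922378 and EGFL7 A_32_P210642. Probes VWF A_23_P105562 and ESAM A_23_P47410 reached this on every array labelled SRSF2 over-expression and on 5 in control. The endothelial sum ran from 1.63 to 2.00 times the 75th percentile signal in control and from 1.46 to 2.31 times in the arrays labelled SRSF2 over-expression, so the ranges overlapped.

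The promoters of ANGPTL4 and PGF are shown because these are the ligands of the set whose single probe moved, in opposite directions. They are the 250 bases upstream of the transcription start in the RefSeq annotation of GRCh38.p14, for ANGPTL4 chr19:8363905-8364154 on the plus strand and for PGF, whose first of 2 entries is given, chr14:74955765-74956014 on the minus strand. Capitals mark matches on either strand to the GC box (GGGCGG), the core of the hypoxia response element (ACGTG or GCGTG) and the TATA element (TATAAA).
ANGPTL4: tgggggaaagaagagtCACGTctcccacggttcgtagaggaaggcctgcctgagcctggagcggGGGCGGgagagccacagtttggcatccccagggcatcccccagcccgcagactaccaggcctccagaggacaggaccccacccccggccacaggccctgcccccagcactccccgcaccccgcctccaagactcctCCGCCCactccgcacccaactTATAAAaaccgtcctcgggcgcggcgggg
PGF: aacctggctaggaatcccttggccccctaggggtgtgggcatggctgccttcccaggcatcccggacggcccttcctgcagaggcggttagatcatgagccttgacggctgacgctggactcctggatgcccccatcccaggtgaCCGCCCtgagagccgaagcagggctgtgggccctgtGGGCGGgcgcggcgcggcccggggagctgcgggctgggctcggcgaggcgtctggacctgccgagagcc
The ANGPTL4 window holds 2 GC boxes, 1 hypoxia core and 1 TATA element, and the PGF window holds 2 GC boxes and neither of the others. The window of the second PGF entry, which overlaps the first, holds 3 GC boxes, 1 hypoxia core and no TATA element. The lack of a hypoxia core is thus true of the first PGF entry only. Over 35116 promoter windows of the same length, 42.6% hold a GC box, 43.2% a hypoxia core and 10.72% a TATA element. These matches describe letters in the window and are not evidence of binding.

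Of the 20 probes, 9 were well above background on all 12 arrays and 6 on no array. Over all gene probes these shares were 50.6% and 26.2%. Testing required that 5 or more of the 6 arrays of a condition were well above background, which 11 probes of 6 genes met and 9 did not. Both neuropilins, 3 of the ligands and FLT4 were thus tested, while KDR, FLT1 and ANGPT2 were not well above background on any array.

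**Figure D1:**
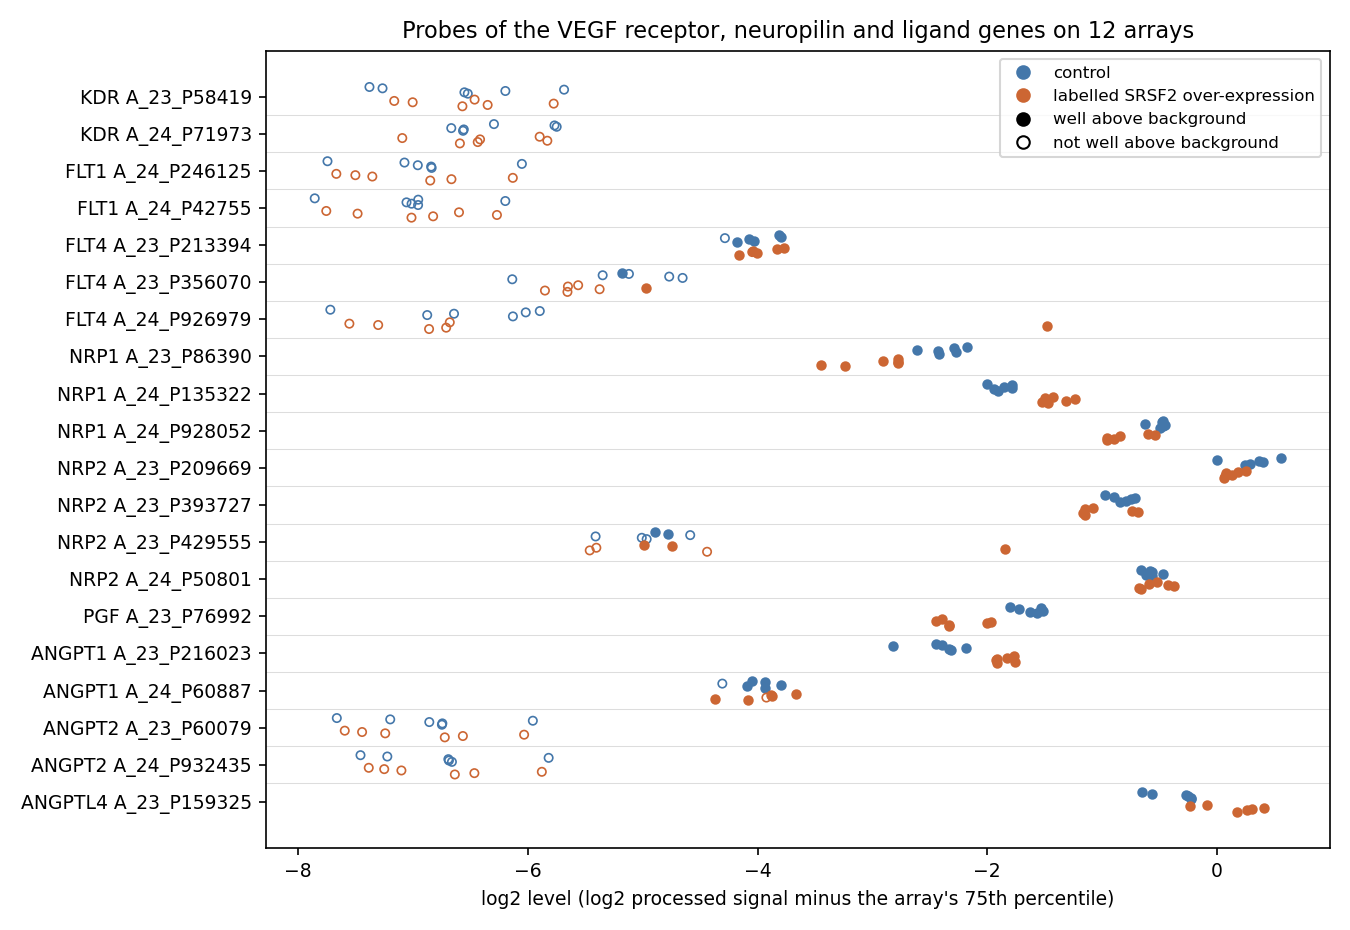
Log2 level (horizontal axis, log2 processed signal minus the array's 75th percentile) of each of the 20 probes on the 12 arrays. Filled points are well above background and open points are not; KDR, FLT1 and ANGPT2 have open points only, and the 2 filled points far to the right of their rows, for FLT4 A_24_P926979 and NRP2 A_23_P429555, are from the same array on slide 2. Levels of different probes are not comparable.

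KDR, the main signalling receptor for VEGFA, has 2 probes, and neither was well above background on any of the 12 arrays. Probe A_23_P58419 gave processed signals from 5.17 to 20.9 scanner units in control and from 7.67 to 19.4 in the arrays labelled SRSF2 over-expression, and A_24_P71973 from 10.8 to 19.96 and from 8.05 to 18.6. The conditions overlapped for both probes, and no fold change is given where neither side was well above background.

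FLT1, the receptor of VEGFA, VEGFB and PGF, was likewise not well above background on any array by either of its 2 probes. Signals of A_24_P246125 lay between 4.31 and 16.2 units in control and between 4.82 and 15.1 in the other arrays, and those of A_24_P42755 between 3.99 and 14.6 and between 4.53 and 13.8. FLT1, the receptor tyrosine kinase that binds PGF, thus gave no level above background in either condition.

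FLT4, the receptor of VEGFC and VEGFD, was the one receptor with a probe that could be tested. A_23_P213394 was well above background on 5 arrays of each condition, with log2 levels from −4.28 to −3.80 (median −4.05) in control and from −4.16 to −3.77 (median −4.02) in the arrays labelled SRSF2 over-expression. The conditions overlapped and differed by 0.057 (SE 0.10, 95% interval −0.15 to 0.26; limma, adjusted p = 0.64). Of its other probes, A_23_P356070 was well above background on 1 array of each condition and A_24_P926979 on 1 array labelled SRSF2 over-expression and 0 control arrays, so neither was tested.

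Of the 11 tested probes, 6 passed an adjusted p of 0.05 in limma, 3 higher and 3 lower in the arrays labelled SRSF2 over-expression. That is 54.5% of those tested, beside 57.7% of all 24331 probes tested (29.7% higher and 28.0% lower), so the set was called about as often as the array as a whole. None of the 11 also reached a 2-fold difference, beside 7.00% of all probes tested (3.68% higher and 3.31% lower). The median log2 difference of the 11 probes was 0.032, against 0.011 over all probes. In 4 of the 11 probes the 6 arrays of one condition did not overlap with the 6 of the other, beside 40.2% of all probes tested. With 6 arrays against 6, the exact two-sided permutation test cannot give a p below 0.00216. The arrays read RNA of whole cultures, in which fewer cells that express a gene and less of its RNA per cell cannot be told apart.

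**Figure D2:**
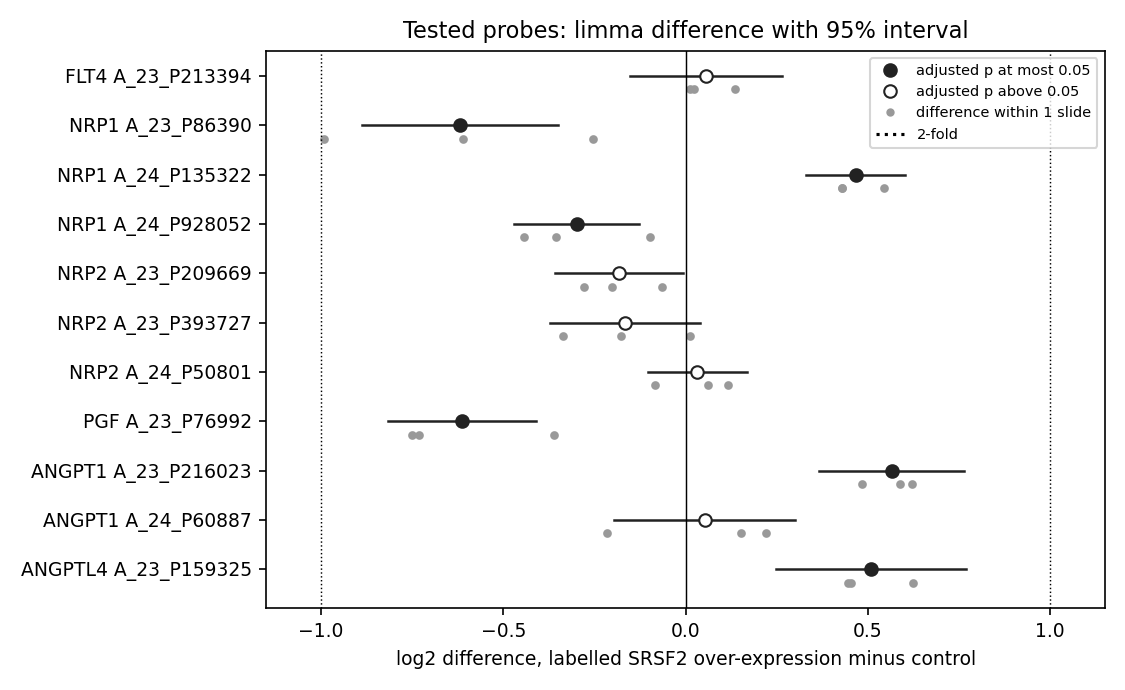
Log2 difference (horizontal axis, arrays labelled SRSF2 over-expression minus control) of the 11 tested probes, with the 95% interval from limma as a line and the difference within each of the 3 slides as a small grey point. The NRP1 rows lie on both sides of 0, from −0.62 to 0.47, and no row reaches the dotted 2-fold lines.

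NRP1, the co-receptor for VEGFA and semaphorin 3A, gave opposite directions on probes of the same transcript record. Its 3 probes carry the same RefSeq accession and all were well above background on all 12 arrays. One was higher and 2 were lower in the arrays labelled SRSF2 over-expression.

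The NRP1 probe A_24_P135322 had log2 levels from −1.998 to −1.78 (median −1.88) in control and from −1.52 to −1.24 (median −1.45) in the arrays labelled SRSF2 over-expression. Every array of the latter lay above every control array. The level rose by 0.47 (SE 0.06; limma, adjusted p = 3.5e-05; exact permutation p = 0.00216), a 1.38-fold difference, with differences of 0.43, 0.54 and 0.43 within slides 1, 2 and 3.

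The NRP1 probe A_23_P86390 went the other way, with log2 levels from −2.61 to −2.18 (median −2.36) in control and from −3.45 to −2.77 (median −2.84) in the arrays labelled SRSF2 over-expression. No array of one condition reached those of the other. The level fell by 0.62 (SE 0.12; limma, adjusted p = 0.00089; exact permutation p = 0.00216), 1.54-fold lower, and the differences within slides 1, 2 and 3 were −0.61, −0.26 and −0.99. Scaled on the spike-in control probes instead, the difference was −0.41 with a larger SE of 0.21 (limma, adjusted p = 0.14). That setting moved the median of all probes up by 0.21.

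The third NRP1 probe, A_24_P928052, had log2 levels from −0.63 to −0.46 (median −0.47) in control and from −0.95 to −0.54 (median −0.87) in the arrays labelled SRSF2 over-expression. The conditions overlapped, since both slide 1 arrays of the latter lay at −0.54 and −0.60. The level fell by 0.30 (SE 0.08; limma, adjusted p = 0.0057), with differences of −0.10, −0.36 and −0.44 within slides 1, 2 and 3. Over the settings tried this call was lost more often than the other 5: the difference was −0.092 (limma, adjusted p = 0.78) on spike-in scaling, −0.30 (limma, adjusted p = 0.085) with the mean of each pair of arrays as 1 replicate, and −0.23 (limma, adjusted p = 0.10) without slide 3.

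Because both directions were on the same arrays, the differences between NRP1 probes were tested as such, a test chosen after the values were seen. The log2 level of A_23_P86390 minus that of A_24_P135322 ranged from −0.75 to −0.18 in control and from −1.92 to −1.35 in the arrays labelled SRSF2 over-expression, without overlap. The responses of these probes differed by −1.09 (SE 0.12; limma, adjusted p = 1.2e-05 over 6319 probe pairs), and those of A_24_P135322 and A_24_P928052 by 0.77 (SE 0.11; limma, adjusted p = 8.5e-05). A_23_P86390 and A_24_P928052 differed by −0.32 (SE 0.12; limma, adjusted p = 0.043), a call that was lost in 8 of 16 other settings, the replicate block among them (limma, adjusted p = 0.070), with an adjusted p of up to 0.45 in limma and a difference of −0.073 after normexp background correction. After the same correction the first of these differences was −0.59. Unequal responses of probes of one gene were common on these arrays: 40.0% of the 6319 probe pairs passed the same test, and in 7.45% both probes passed the adjusted p in opposite directions. The probe sequences, and with them the part of NRP1 that each probe reads, were not used here.

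NRP2, the co-receptor for VEGFC and semaphorin 3F, had 4 probes, of which 3 were well above background on all 12 arrays and none passed the adjusted p. A_24_P50801 had log2 levels from −0.66 to −0.47 (median −0.57) in control and from −0.68 to −0.37 (median −0.56) in the arrays labelled SRSF2 over-expression, a difference of 0.032 (95% interval −0.10 to 0.17; limma, adjusted p = 0.68). Its conditions overlapped over nearly their whole range.

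The NRP2 probe A_23_P209669 ran from 0.0046 to 0.56 (median 0.33) in control and from 0.06 to 0.25 (median 0.10) in the arrays labelled SRSF2 over-expression, with overlap. The difference was −0.18 (95% interval −0.36 to −0.01; limma, adjusted p = 0.072), and it was negative within all 3 slides. The lowest control level was that of replicate 2 on slide 1. Without slide 1 the difference was −0.24 (limma, adjusted p = 0.0046), while without slide 2 or slide 3 it did not pass (limma, adjusted p = 0.34 and 0.26). For A_23_P393727 the levels ran from −0.98 to −0.71 (median −0.82) in control and from −1.17 to −0.69 (median −1.11) in the others, a difference of −0.17 (95% interval −0.37 to 0.04; limma, adjusted p = 0.15). Blocking on the slide took the same difference past the threshold (limma, adjusted p = 0.017), and the same block on the means of 2 arrays did not (limma, adjusted p = 0.17).

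The fourth NRP2 probe, A_23_P429555, was not tested, as only 2 control arrays and 3 of the others were well above background. It carries a different RefSeq accession from the other NRP2 probes. Of those, A_23_P209669 and A_23_P393727 share an accession, and A_24_P50801 carries another. Among the pairs of tested NRP2 probes, the responses of A_23_P393727 and A_24_P50801 differed by −0.20 (SE 0.07; limma, adjusted p = 0.027), and the other pairs did not pass (limma, adjusted p = 0.11 and 0.94). The call for that pair was lost in 6 of 16 other settings.

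PGF was the ligand that fell. Its 1 probe, A_23_P76992, had log2 levels from −1.81 to −1.52 (median −1.60) in control and from −2.44 to −1.97 (median −2.33) in the arrays labelled SRSF2 over-expression. The conditions did not overlap, and on every slide both arrays labelled SRSF2 over-expression lay below both control arrays. The level fell by 0.61 (SE 0.09; limma, adjusted p = 9.9e-05; exact permutation p = 0.00216), 1.53-fold lower, with differences of −0.75, −0.36 and −0.73 within slides 1, 2 and 3. On spike-in scaling the difference was −0.41 with a larger SE of 0.22 (limma, adjusted p = 0.17).

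ANGPT1, the agonist ligand of TEK, rose on one of its 2 probes. A_23_P216023 had log2 levels from −2.82 to −2.19 (median −2.36) in control and from −1.92 to −1.76 (median −1.87) in the arrays labelled SRSF2 over-expression. The control arrays were more spread than the others, yet none of them reached the lowest of the others. The level rose by 0.57 (SE 0.09; limma, adjusted p = 0.00016; exact permutation p = 0.00216), a 1.48-fold difference, with differences of 0.62, 0.59 and 0.48 within slides 1, 2 and 3.

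The second ANGPT1 probe, A_24_P60887, carries the same accession and was well above background on 5 arrays of each condition. Its log2 levels ran from −4.31 to −3.79 (median −3.99) in control and from −4.37 to −3.66 (median −3.90) in the others, a difference of 0.052 (95% interval −0.20 to 0.30; limma, adjusted p = 0.72). The responses of both ANGPT1 probes differed by 0.51 (SE 0.11; limma, adjusted p = 0.0024), in a test chosen after the values were seen, and by 0.21 after normexp background correction and 0.33 without background subtraction. Processed signals of A_24_P60887 lay between 51.3 and 78.8 scanner units over both conditions, near background, and the part of this in its smaller difference was not tested.

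ANGPT2, which can oppose ANGPT1 at TEK, was not well above background on any array by either of its 2 probes. Its processed signals lay between 4.56 and 17.3 units for A_23_P60079 and between 5.27 and 19.0 for A_24_P932435 over both conditions. No fold change is given.

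ANGPTL4 was the ligand whose arrays depended most on the slide. Its 1 probe, A_23_P159325, had log2 levels from −0.66 to −0.23 (median −0.26) in control and from −0.23 to 0.41 (median 0.22) in the arrays labelled SRSF2 over-expression. The highest control array and the lowest of the others met at −0.23, so the conditions overlapped narrowly over the 3 slides together. The level rose by 0.51 (SE 0.12; limma, adjusted p = 0.0028; exact permutation p = 0.0065), a 1.42-fold difference.

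Within each slide the ANGPTL4 arrays separated completely. On slide 1 the control arrays stood at −0.66 and −0.57 and the others at −0.08 and −0.23, on slide 2 at −0.27 and −0.25 against 0.41 and 0.31, and on slide 3 at −0.23 and −0.23 against 0.26 and 0.18. The differences within slides 1, 2 and 3 were 0.46, 0.62 and 0.45, and 91.0% of the deviation of the 12 arrays from their condition means lay between slides. Blocking on the slide lowered the SE to 0.045 (limma, adjusted p = 2.2e-06). With the mean of each pair of arrays as 1 replicate and no block, the call was narrowly lost (limma, adjusted p = 0.051).

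**Figure D3:**
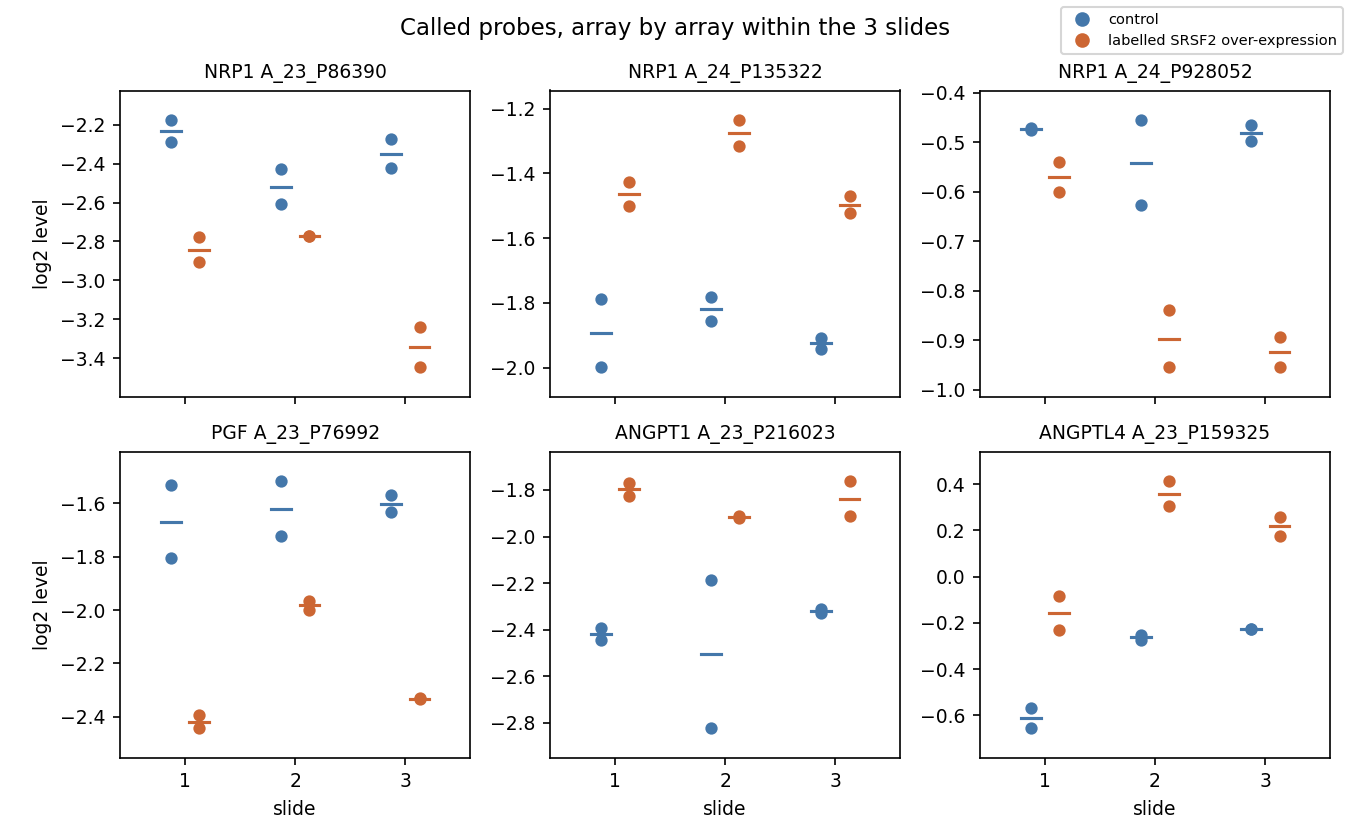
Log2 level of the 6 called probes (vertical axis, its own scale in each panel) on each array, by slide, with the mean of each pair of arrays as a short line. The arrays labelled SRSF2 over-expression lie on the same side of control on all 3 slides in every panel, and ANGPTL4 on slide 1 sits lower than on slides 2 and 3 in both conditions.

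Normexp background correction gave smaller differences with the same direction and side of the threshold for all 6 called probes. For A_24_P135322 and A_23_P86390 of NRP1 the differences were 0.29 and −0.31, for PGF −0.35 and for the called ANGPT1 probe 0.27.

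As a description, the named genes whose deviations from the condition means tracked each measured gene most closely over the 12 arrays were sought among 14214 probes that were well above background on all arrays. ANGPTL4 was closest to H2AC11 (r = 0.99) and MSRB1 (r = 0.99), PGF to CACNA1I (r = 0.97) and MMP17 (r = 0.97), and NRP2 A_23_P209669 to ENOSF1 (r = 0.95) and FOXJ2 (r = 0.95). For NRP1 A_24_P928052, ACAT1 was among the closest (r = 0.91), and ANGPT1 was closest to THBS3 (r = 0.88) and WWTR1 (r = 0.88). These points share slides: the share of deviation that lay between slides was 91.0% for ANGPTL4, 51.7% for the NRP1 probe, 43.5% for PGF, 14.4% for ANGPT1 and 8.61% for the NRP2 probe. A single array can also weigh in such an r. For the NRP2 probe, control replicate 2 on slide 1 was the lowest control array at 0.0046. That array stood far below the rest of its condition for 1501 of 40707 probes, against 85 to 394 for the other control arrays. Its part in these r values was not tested.

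Genes that act around the receptors and ligands were counted in 5 lists, read against the same 57.7% of all probes called. Among the other VEGF ligands (VEGFA to VEGFD), 5 of 7 tested probes passed the adjusted p, 3 higher and 2 lower. The lower ones were VEGFB A_23_P1594 at −0.30 and VEGFC A_23_P167096 at −0.24, named after their values were seen. The higher ones were all VEGFA, the ligand of FLT1 and KDR, at 1.05, 0.84 and 0.54 on the log2 scale (limma, adjusted p at most 0.0010), while VEGFA A_24_P12401 differed by −0.20 (limma, adjusted p = 0.15). The VEGFA difference of 1.05, for A_24_P179400, was the 1 probe of this list past 2-fold, and was 0.89 after normexp background correction and 0.98 without background subtraction.

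Downstream of the receptors, 20 of 32 tested probes passed, 8 higher and 12 lower, with a median difference of −0.06. Among the 8, GAB1 A_23_P18505 entered the test through the arrays labelled SRSF2 over-expression alone. It was well above background on 5 arrays there and on 2 in control, so its difference of 0.87 is given as a value. All 4 probes past 2-fold were lower: PRKCA, a protein kinase C that acts between phospholipase C and the MAP kinases, fell by 1.28 and 1.22 on its 2 probes, and PLCG2, a phospholipase C gamma, by 1.12. PLCG1, the phospholipase C gamma that binds activated KDR, fell by 1.06 and is named here after its values were seen (limma, adjusted p = 4.3e-08). After normexp background correction PRKCA A_23_P55099 was at −0.51 and PLCG2 at −0.57, and without background subtraction at −0.82 and −0.84, all short of 2-fold. For PRKCA A_24_P916496 the log2 levels ran from 2.65 to 2.81 in control and from 1.24 to 1.79 in the arrays labelled SRSF2 over-expression, with no overlap.

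Among the neuropilin partners, the class 3 semaphorins and plexins, 6 of 13 tested probes passed, 1 higher and 5 lower. PLXNA1, a plexin that signals for semaphorin 3A with NRP1, fell by 0.92 on A_23_P57667 (SE 0.07; limma, adjusted p = 3.6e-07) with levels of 3.25 to 3.403 in control and 2.18 to 2.62 in the others, while its probe A_23_P69068 differed by −0.0010 (limma, adjusted p = 0.99). The 1 probe that was higher, PLXND1 A_23_P80752 at 0.34, has a partner, A_24_P376391, that was lower at −0.31 (limma, adjusted p = 0.010 and 0.00029), both named after their values were seen. PLXNA3 fell by 0.44 and SEMA3A, the semaphorin ligand of NRP1, by 0.42 on A_24_P192301 (limma, adjusted p = 0.00054 and 0.00034). On spike-in scaling these last differences were −0.23 (limma, adjusted p = 0.44) and −0.22 (limma, adjusted p = 0.47).

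On the angiopoietin axis 11 of 13 probes were well above background on no array, among them those of TEK, the receptor of the angiopoietins, and of its relative TIE1. The 1 tested probe, of ANGPTL2, did not pass. Around ANGPTL4, 8 of 12 tested probes of PPAR factors, their targets and the lipases passed, 3 higher and 5 lower. PPARD, a nuclear receptor that activates ANGPTL4 transcription, fell by 1.58 on A_24_P252130 (SE 0.06; limma, adjusted p = 5.5e-10), from levels of 1.41 to 1.69 in control to −0.15 to 0.08 in the others, and its partner RXRA fell by 0.86 on A_23_P219176. The second PPARD probe, A_23_P214681, entered the test through control alone, being well above background on 5 arrays there and on 3 in the other condition, so its difference of −0.92 is given as a value; it was −0.21 after normexp background correction and −0.44 without background subtraction. Among the 3 that were higher were PPARG A_23_P252062 at 0.36 and PLIN2 A_23_P134953 at 0.23, named after their values were seen. LPL, the lipase that ANGPTL4 inhibits, was not tested, since 0 control arrays and 2 of the others were well above background.

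**Figure D4:**
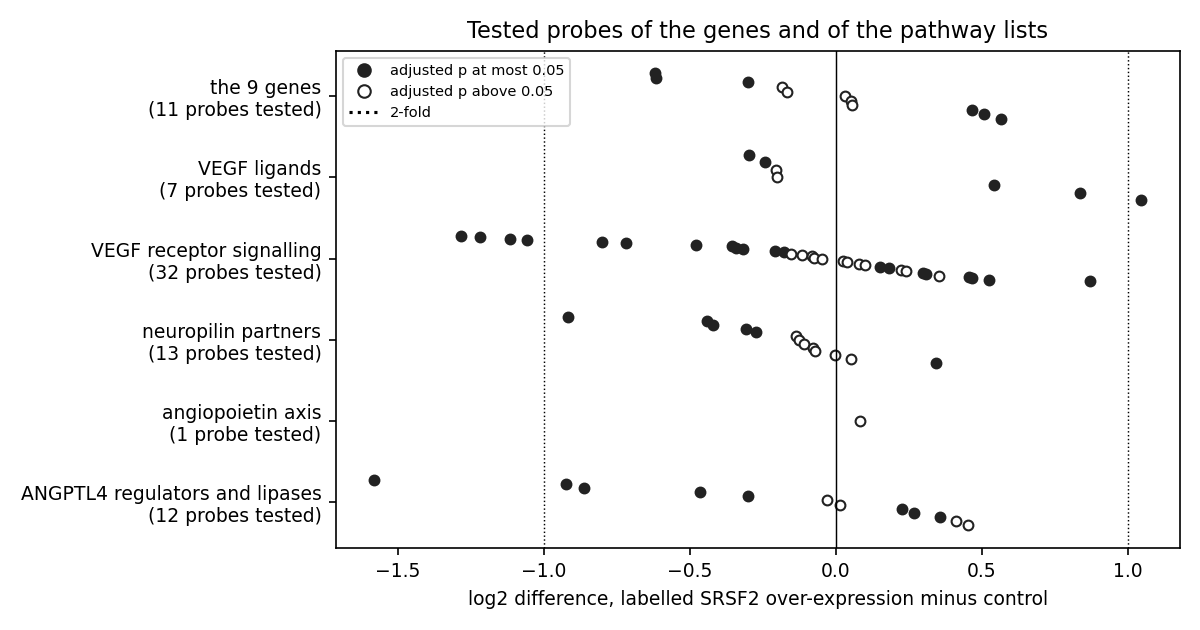
Log2 difference (horizontal axis, arrays labelled SRSF2 over-expression minus control) of every tested probe of the 9 genes and of the 5 lists, with filled points past an adjusted p of 0.05 and dotted lines at 2-fold. The receptor signalling row reaches −1.28 at PRKCA, the ANGPTL4 row −1.58 at PPARD, and the VEGF ligand row 1.05 at VEGFA, while the 9 genes stay between −0.62 and 0.57.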

How the data were processed

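The 12 arrays are one-colour Agilent 44 k arrays of cyanine3-labelled cRNA. The authors deposited scanner output made with Feature Extraction 10.7.3.1, whose processed intensity is background-subtracted, and a table of log2 values, which matched the scanner values scaled on the 75th percentile and centred on each probe (all 23740 probes compared lay within 0.1 log2; column medians −0.02 to 0.01). The study's methods name GeneSpring GX, leave out genes missing in over 25% of samples and use a t-test with the Benjamini-Hochberg procedure.

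Log2 processed intensities were averaged over spots of a probe, without control spots and outlier flags, and each array was scaled on the 75th percentile of its gene probes. Tested probes were missing on no more than 3 arrays, and 5 or more of the 6 arrays of a condition were well above background (for repeated spots, when the flagged spots were not outnumbered). The conditions were compared over 24331 probes in R 4.3.3 with limma 3.58.1 and no covariates, and all adjusted p-values run over all probes tested. Exact permutation tests used numpy 2.4.6.

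RefSeq accessions were named through the GRCh38.p14 RefSeq gene table, which matched 23958 of 25868 such probes and left 17042 of all gene probes unnamed. The files' annotation is of another build, so no probe coordinates are given. Promoters of KDR, FLT1, NRP2, PGF and ANGPTL4 were found in the RefSeq promoter table, and those of NRP1 and FLT4 were not; those of ANGPT1 and ANGPT2 were not used here. The members and the gene lists were chosen with earlier results of these data known. Named are all probes of the 9 genes, the 3 largest called differences of each list, the 2 most similar genes and SRSF2. Some items that this rule names are not reported here. Similarity is Pearson's r, for the probe of each gene with the highest such r.

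Array numbers 1 to 6 recur in both conditions of the labels. Deviations of arrays with the same number correlated (r from 0.28 to 0.64 over 6 pairs), those of other numbers on the same slide did too (0.33 to 0.66), and those across slides correlated below 0 (−0.48 to −0.047), so numbers pair the arrays through the slide. The alternatives were other scalings (median, quantile, 6 spike-in probes), the authors' table, normexp (offset 50), unsubtracted signals, no filter or a stricter one (9 of 12 arrays), flagged spots retained, the methods' t-test, blocks, means of 2 arrays, each slide left out, and no fold threshold. Normexp and the setting without background subtraction used the median spot intensity. On simulated data with 200 changed probes among 23740, 191 were recovered by limma and 0 others were called. Recovery of differences as small as those of the 9 genes, on arrays that share slides, was not tested. Precision is limited by the number of arrays.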

Additional observations from a re-analysis of the deposited data

Results flagged for a closer look

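In 3 of the 40 sets of 6 arrays, 1 array stood far from the other 5; chance alone gives about 1 in 20. For NRP1 A_24_P928052, control replicate 3 on slide 2 was the lowest at a log2 level of −0.63, with the next at −0.50. For FLT4 A_24_P926979, the replicate 4 array labelled SRSF2 over-expression, also on slide 2, stood at −1.48 with the next at −6.68, and its processed signal of 381 scanner units was the only one of that probe well above background. For NRP2 A_23_P429555 the same array stood at −1.85 with the next at −4.44, at a signal of 294 units. Neither of the last 2 probes was tested. Over the 16654 probes that were not tested and had a value on every array of that condition, this array was the far highest one by over 2-fold for 379 probes, and the other 5 arrays of its condition for 65 to 102. In control, replicate 3 on slide 2 was so for 431 of 16653 probes, and the other 5 arrays for 76 to 101.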

How the results depend on the processing

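Of the 9 genes' probes, 6 were called by limma, and with another scaling, filter, test or block from 3 to 7 were; with each slide left out the count was 5 to 7. The replicate block gave 6, lost no call among the 9 genes, and of the differences between their probes lost that between NRP1 A_23_P86390 and A_24_P928052 (adjusted p = 0.070), which was lost in 8 of 16 settings in all (−0.53 to −0.073). Spike-in scaling moved the median of all probes by 0.21 and left 3 called, the rises of NRP1 A_24_P135322, ANGPT1 and ANGPTL4: NRP1 A_23_P86390 (−0.41), A_24_P928052 (−0.092) and PGF (−0.41) kept their direction without the call, and NRP2 A_23_P209669 (0.024) and A_23_P393727 (0.039) turned. It called 18 list probes against 39, and the mean of 2 arrays 25, where NRP1 A_24_P928052 (−0.30) and ANGPTL4 (0.51) missed. Without slide 3, NRP1 A_24_P928052 was at −0.23. NRP2 A_23_P209669 passed with median scaling (−0.21) and without slide 1 (−0.24), and NRP2 A_23_P393727 with slide as a block (−0.17; not on the means of 2 arrays, adjusted p = 0.17) and without slide 2 (−0.26). Differences near 0 turned for FLT4 A_23_P213394 (normexp −0.011, no background subtraction −0.037), NRP2 A_24_P50801 (−0.023 and −0.018 in the same settings, −0.010 without slide 2) and ANGPT1 A_24_P60887 (−0.032 without slide 1), and so did the difference between NRP2 A_23_P209669 and A_23_P393727 (quantile 0.0015, normexp 0.031, no background subtraction 0.035, without slide 2 0.12). All probes past 2-fold numbered 1702, against 331 with normexp, 798 without background subtraction and 14042 without a fold threshold; spike-in scaling put 78.7% of its 2019 on the higher side, against 52.6%. The cause was not tested. Signals of KDR, FLT1 and ANGPT2 gave no level above background, which limits what can be said of them.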
